A study of Homo sapiens with 6 samples.

Results

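Transcribed pseudogenes are copies or remnants of genes that no longer encode the ancestral protein but still give rise to RNA. The authors' deposited table of an RNA-seq comparison listed 14538 genes, of which 210 carried an annotation as a transcribed pseudogene. They were taken by that annotation alone, without use of their levels, and comprised 47 processed, 141 unprocessed and 22 unitary pseudogenes. The cells were HEK293T, a human embryonic kidney line, with a homozygous miniAID degron tag on INTS8. RNA of these cells was sequenced in 3 libraries without auxin and in 3 libraries made after 48 h in 100 µM auxin. The degron lets auxin direct destruction of the tagged protein, and INTS8 is a subunit of Integrator. All 6 libraries carried the tag, and 0 libraries of untagged cells given auxin were used here, so an action of auxin itself cannot be told apart from loss of INTS8. The labels do not say whether the tagged line was 1 clone, nor whether the libraries were grown as separate cultures. The p-values therefore reflect how these 6 libraries spread, which may be technical.

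A processed pseudogene arises when a messenger RNA is copied back into DNA and inserted elsewhere, usually without introns and without the promoter of its source. An unprocessed pseudogene arises by duplication of genomic DNA and can keep introns and promoter, whereas a unitary pseudogene is a gene that lost its function without leaving an intact copy. Integrator cuts RNA as RNA polymerase II makes it. It thereby stops transcription at small nuclear RNA genes, enhancers and antisense transcripts, and close to the start of many coding genes.

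The table held no value per library, so the data behind each pseudogene were a mean level over the 6 libraries in normalised counts, a fold change and an adjusted p. The mean level and the fold change gave a derived level in each group, and a standard error (SE) of the log2 fold change was derived from its p-value. The numerator of the fold changes is not named in the header. A positive value is taken here to mean more RNA with auxin, as is customary, and every direction given turns around if that is wrong. A pseudogene is said to have risen or fallen where the authors' adjusted p was under 0.05. In bulk RNA, fewer cells of a kind and less RNA per cell cannot be told apart.

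Of the markers used to check the cell line, NEFM, VIM, PAX2, KRT8, KRT18 and LIN28B were all listed, at mean levels from 220 for PAX2 to 8932 for VIM by the authors' deposited table. PTPRC, PECAM1, ALB and COL1A1, markers of blood, endothelium, liver and fibroblasts, were not among the listed genes, and for the neuronal gene MAP2 a mean level of 55 was given. With auxin KRT8, KRT18, NEFM and LIN28B rose, at log2 fold changes of 0.82, 0.31, 3.44 and 0.22, PAX2 fell at -0.52, VIM did not pass at 0.09, and MAP2 rose at 0.85. INTS8 mRNA was at 1.28-fold by the authors' deposited table, which says nothing of the protein that the degron acts on.

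The following pairs of sequences show how far these copies have moved from a coding gene, and how hard their reads can be to assign. Each stretch has 90 bases and is read from GENCODE 29 transcripts on GRCh38, 5′ to 3′ along the transcript, with capitals marking the bases that differ within the pair. KRT18P59 is a processed copy of KRT18, a keratin of the epithelial intermediate filaments, and is shown from the start codon of the coding gene.
KRT18P59, chr11:125113570-125113659, plus strand: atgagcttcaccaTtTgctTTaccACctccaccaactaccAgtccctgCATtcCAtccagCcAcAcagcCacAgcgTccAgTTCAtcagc
KRT18, chr12:52949174-52949263, plus strand: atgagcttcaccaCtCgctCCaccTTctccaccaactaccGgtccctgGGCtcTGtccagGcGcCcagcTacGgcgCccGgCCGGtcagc
The keratin copy differs from its source at 23 of the 90 bases. ZDHHC8P1 is an unprocessed copy of ZDHHC8, a palmitoyltransferase, that moved the other way from its source with auxin.
ZDHHC8P1, chr22:23400432-23400521, minus strand: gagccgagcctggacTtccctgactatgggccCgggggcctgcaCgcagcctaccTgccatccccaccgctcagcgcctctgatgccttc
ZDHHC8, chr22:20142819-20142908, plus strand: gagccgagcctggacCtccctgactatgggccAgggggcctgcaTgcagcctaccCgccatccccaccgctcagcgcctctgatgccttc
GTF2IP1 is an unprocessed copy of GTF2I, the transcription factor TFII-I, and FAHD2CP is closest to FAHD2B. Both fell with auxin, as did GTF2I. FAHD2B only just passed, at a log2 fold change of -0.21 (adjusted p 0.0453 by the authors' deposited table), against -0.79 for FAHD2CP. FAHD2A, the other listed coding gene of that family, did not pass (log2 -0.004).
GTF2IP1, chr7:75217175-75217264, minus strand: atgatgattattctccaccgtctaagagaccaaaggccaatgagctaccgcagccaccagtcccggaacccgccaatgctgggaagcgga
GTF2I, chr7:74728786-74728875, plus strand: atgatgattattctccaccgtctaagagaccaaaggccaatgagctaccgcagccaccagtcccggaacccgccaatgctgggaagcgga
FAHD2CP, chr2:96013751-96013840, plus strand: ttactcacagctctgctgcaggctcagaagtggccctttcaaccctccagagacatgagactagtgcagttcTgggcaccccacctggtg
FAHD2B, chr2:97091593-97091682, minus strand: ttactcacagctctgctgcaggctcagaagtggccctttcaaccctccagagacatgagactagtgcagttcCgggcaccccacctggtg
ZDHHC8P1 differs from ZDHHC8 at 4 bases and FAHD2CP from FAHD2B at 1 base. GTF2IP1 and GTF2I are identical over this stretch, so a short read from it fits both genes equally. These pairs were chosen after their values were seen.

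Transcribed pseudogenes mostly did not pass the threshold, and those that did rose more often than they fell. Of the 210, 39 rose, 20 fell and 151 did not pass. That is 28.1% past the threshold, where 56.7% of all listed genes were. In the same order, 18.6% rose and 9.52% fell, against 27.8% and 28.9% of all listed genes. Changes of 2-fold or more numbered 16 rises and 1 fall, and among all listed genes 7.88% and 1.36% did so. The median log2 fold change was 0.13, beside 0.00 over all listed genes, 0.37 over 1384 long noncoding RNAs and -0.02 over 12824 protein-coding genes. Values above 0 were held by 131 pseudogenes, values below 0 by 76, and 3 were at 0.

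**Figure D1:**
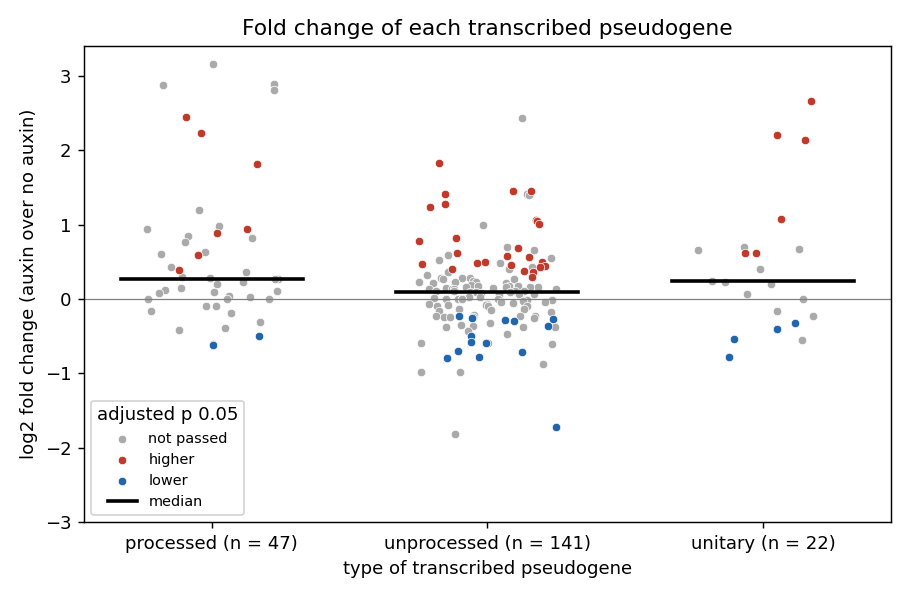
Log2 fold change with auxin for each transcribed pseudogene, by type, with 1 point per pseudogene and a bar at each type's median. Rises past adjusted p 0.05 reach above 2 in the processed and unitary types, and the 1 fall of at least 2-fold is an unprocessed pseudogene, FAM86B3P.

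The 3 types had unlike counts. Processed pseudogenes had 7 rises, 2 falls and 38 that did not pass, with a median log2 fold change of 0.27. Unprocessed pseudogenes had 26 rises, 14 falls and 101 that did not pass, with a median of 0.09. Unitary pseudogenes had 6 rises, 4 falls and 12 that did not pass, with a median of 0.24. The share past the threshold was thus 19.1%, 28.4% and 45.5%. The difference between types was not tested.

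The types also had unlike levels. The median mean level was 35 for processed, 136 for unprocessed and 78 for unitary pseudogenes, against 1185 over all listed genes. Per kilobase of transcript, the median level was 49.0, 94.1 and 58.1, against 388 over all listed genes. A mean level of 0 was given for 11 pseudogenes, 7 of them processed and 4 unprocessed. The median derived SE was 0.115 for pseudogenes at levels of 100 or more and 0.317 at levels from 10 to 99.

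The shares past the threshold can also be set beside those of listed genes in the same class of mean level. The highest class has no upper limit. In it the median level was 349 for the pseudogenes and 1600 for all listed genes, so levels there were not matched. Among the 101 with a mean level of at least 100, 24 rose and 16 fell, 39.6% in all, where 61.7% of listed genes at that level passed. Their median log2 fold change was 0.06, with that of all listed genes at that level at -0.03. Of 57 with levels from 20 to 99, 12 rose and 4 fell, 28.1% against 44% of listed genes. Of 52 with levels under 20, 3 rose and 0 fell, 5.77% against 14.8%. Among all listed genes under that level 13.5% rose and 1.33% fell, from 20 to 99 33.2% and 10.8% did, and at 100 or more 28.5% and 33.2%. Within the highest class, 5 of 15 processed pseudogenes rose and 1 fell, 17 of 77 unprocessed rose and 12 fell, and 2 of 9 unitary rose and 3 fell. At that level the medians of the types lay at 0.19, 0.04 and -0.00, in the order processed, unprocessed and unitary.

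**Figure D2:**
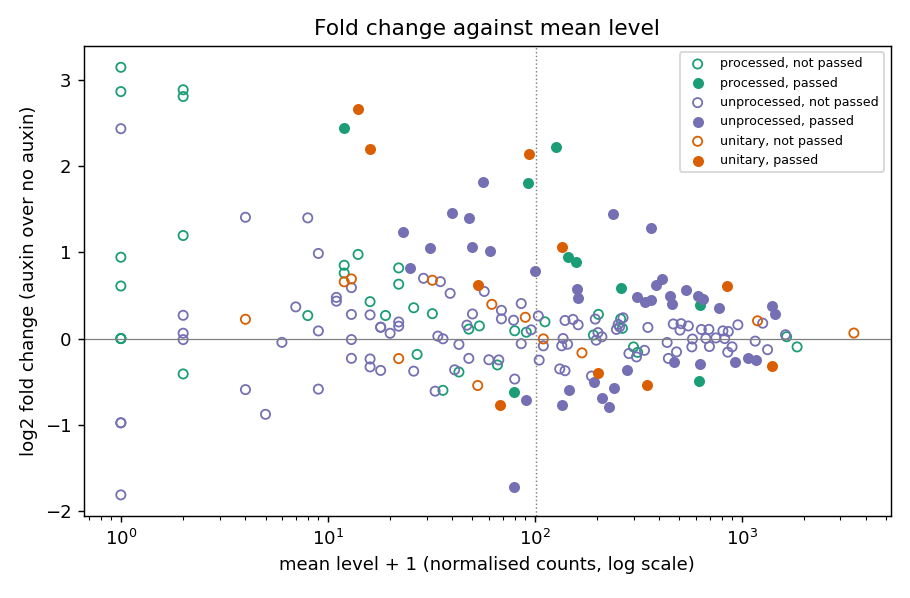
Log2 fold change with auxin against mean level plus 1 on a log axis, for the 210 transcribed pseudogenes, with filled points past adjusted p 0.05 and a dotted line at a mean level of 100. The values fan out to the left, and the highest value, 3.15, and the lowest, -1.82, were held by pseudogenes with a mean level of 0.

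Among processed pseudogenes with a mean level of at least 20, the largest rises were those of copies of a keratin and of a ribosome biogenesis gene. KRT18P59, on chromosome 11 from 125113161 to 125126781 (hg38, plus strand), had a derived level of 44.0 without auxin and 206 with auxin. Its fold change was 4.69 (adjusted p 6.75e-30) and its log2 fold change 2.23 in the authors' deposited table, with a derived SE of 0.19. This was the lowest adjusted p among the transcribed pseudogenes. The transcript is 3338 bases long, and over 1391 aligned bases it is 83.97% identical to KRT18, with 4 gaps that shift the reading frame and 3 new stop codons. KRT18 itself rose to 1.24-fold (log2 0.31) with a mean level of 3760 by the authors' deposited table, against 125 for the copy.

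KRT8P12, on chromosome 3 from 160565447 to 160568199, rose from a derived 110 to 204, at 1.85-fold by the authors' deposited table (adjusted p 4.43e-08). Its source KRT8 rose to 1.77-fold there, so that the 2 log2 fold changes, 0.89 (SE 0.15) and 0.82 (SE 0.10), lay within 1 SE of each other. The copy is 86.11% identical to KRT8 and has 6 frameshift gaps and 2 new stop codons. KRT8 and KRT18 pair with each other in simple epithelia, and both keratins and both copies were higher with auxin.

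SDAD1P1, on chromosome 8 from 26379259 to 26382953, is a copy of SDAD1, a gene of ribosome biogenesis. It rose from a derived 40.9 to 143, at 3.503-fold by the authors' deposited table (adjusted p 1.73e-17), while SDAD1 fell (log2 -0.55). The copy covers 99.47% of the coding sequence of SDAD1 at 93.93% identity, with 6 frameshift gaps and 5 new stop codons. A larger fold at a lower level was that of RPS27P25, from the ribosomal protein gene RPS27, which rose from a derived 3.42 to 18.6, at 5.44-fold by the authors' deposited table, and RPS27 did not pass.

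Smaller rises in this class were those of AC098934.2, AC020904.2 and TPM3P9. AC098934.2 on chromosome 1 rose from a derived 97.8 to 188, at 1.92-fold by the authors' deposited table, and its closest coding sequence is the actin gene ACTG1 at 78.32% identity. AC020904.2 on chromosome 19 rose from 207 to 311, at 1.503-fold by the authors' deposited table. It is 97.59% identical to the citrate synthase gene CS, which fell (log2 -0.14), with 2 new stop codons. TPM3P9, a copy of the tropomyosin gene TPM3 on chromosome 19, rose from 545 to 714, at 1.31-fold by the authors' deposited table, while TPM3 did not pass.

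The 2 processed pseudogenes that fell were GTF2IP4 and Z97634.1. GTF2IP4 on chromosome 7 fell from a derived 727 to 517, at 0.711-fold by the authors' deposited table (adjusted p 1.52e-07). It is annotated as processed, but has 24 exon blocks in GENCODE 29, where the median of its class is 3. Z97634.1 on chromosome 16 fell from 94.4 to 61.6, at 0.652-fold by the authors' deposited table (adjusted p 0.0224). The most abundant processed pseudogenes did not pass. AC073869.1, at a mean level of 1850, had a log2 fold change of -0.10 (SE 0.09), and ZNF37BP, at 1646, had 0.02 (SE 0.07).

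Unprocessed pseudogenes with the largest rises came from several duplicated families. AP000769.1 on chromosome 11 rose from a derived 24.2 to 85.8, at 3.54-fold by the authors' deposited table (adjusted p 2.88e-11). GOLGA2P7 on chromosome 15, a copy of the Golgi matrix gene GOLGA2, rose from 213 to 517, at 2.43-fold by the authors' deposited table (adjusted p 7.03e-25). GOLGA2 itself did not pass (log2 -0.13). The best-scoring aligned stretch of the copy covers 19.06% of the coding sequence of GOLGA2, at 76.90% identity. In a separate search with other alignment settings, the closest coding match of GOLGA2P7 was GOLGA6A, at 81.7% identity over 459 bases. That identity cannot be set directly against the 76.90%. GOLGA6A rose by 4.59 on the log2 scale at a mean level of 37 by the authors' deposited table. AC098934.1 on chromosome 1 rose from 127 to 347, at 2.73-fold by the authors' deposited table (adjusted p 1.71e-21). Its closest coding sequence is TUBA4A, an alpha tubulin, at 74.94% identity, and TUBA4A was higher by 4.03 on the log2 scale.

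COL6A4P1, a remnant of a collagen VI chain gene, rose from a derived 20.9 to 57.1, at 2.74-fold by the authors' deposited table. COMMD4P1 rose from 25.8 to 68.2, at 2.65-fold by the authors' deposited table, and is 96.84% identical to COMMD4, which fell (log2 -0.25). AC044860.1 and GTF2IRD1P1 were at 2.36-fold and 2.08-fold by the authors' deposited table, at mean levels of 22 and 30. Rises of smaller size, at higher levels, were seen in POLR2J4, FRG1HP, ZNF252P, SCAND2P and PLEKHM1P1, from 1.48-fold down to 1.22-fold by the authors' deposited table. POLR2J4, named for a subunit of RNA polymerase II, rose from 431 to 639. FRG1HP rose from 374 to 526, and FRG1, to which it is 91.85% identical, rose too (log2 0.42). SCAND2P rose from 1223 to 1585.

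FAM86B3P was the 1 transcribed pseudogene to fall by at least 2-fold. Its derived level was 120 without auxin and 36.2 with auxin, at 0.303-fold by the authors' deposited table (adjusted p 2.4e-13), with a log2 fold change of -1.72 (SE 0.23). FAHD2CP fell from 288 to 166, at 0.577-fold (adjusted p 6.34e-09), and FAM86JP from 170 to 99.6, at 0.584-fold by the authors' deposited table. BCRP2, GTF2IP1 and ZNF815P also fell, at 0.610-fold, 0.669-fold and 0.706-fold by the authors' deposited table. SMG1P3, a copy of the nonsense-mediated decay kinase gene SMG1, fell from 1150 to 984, at 0.856-fold by the authors' deposited table, while SMG1 did not pass (log2 -0.01). ZNF767P, the most abundant of the unprocessed type at a mean level of 1626, did not pass (log2 0.04, SE 0.08).

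The other rises among unprocessed pseudogenes, named after their values were seen, lay between 1.28-fold and 2.08-fold by the authors' deposited table. TMEM231P1, a copy of a gene of the ciliary transition zone, rose from a derived 31.8 to 66.2, and SUGT1P3, a copy of the kinetochore cochaperone gene SUGT1, from 39.7 to 80.3. ZDHHC8P1 rose from 17.4 to 30.7 and only just passed (adjusted p 0.0465 by the authors' deposited table). GLUD1P3, a copy of the glutamate dehydrogenase gene GLUD1, rose from 72.9 to 125, and MRPL45P2, a copy of a mitochondrial ribosomal protein gene, from 315 to 507. Levels were likewise higher in AMZ2P1, from 291 to 391, and in RRN3P3, a copy of the RNA polymerase I factor gene RRN3, from 395 to 523. AC004890.2, AL133216.2, AC141586.1 and AC026412.1 rose at mean levels of 383, 616, 647 and 778. TMEM191A, LINC00888 and CD99P1 made up the rest, at 1.49, 1.40 and 1.39-fold by the authors' deposited table.

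Further falls in this class, also named after their values were seen, were those of TEKT4P2, ADCY10P1, AC009053.2, NBPF8 and CRYBB2P1. TEKT4P2, from a tektin gene of cilia and flagella, fell from a derived 260 to 160, at 0.617-fold (adjusted p 1.9e-06) by the authors' deposited table. ADCY10P1, from the soluble adenylyl cyclase gene ADCY10, fell from 176 to 116, at 0.661-fold by the authors' deposited table. AC009053.2 fell from 697 to 565 and is 98.88% identical to PDPR, which fell (log2 -0.65), so the reads of the 2 may be mixed. NBPF8 and CRYBB2P1, a copy of a lens crystallin gene, fell from 1009 to 837 and from 1269 to 1065.

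Of the pseudogenes that did not pass, 61 had a mean level of at least 100. Their log2 fold changes ran from -0.44 for GTF2H2B to 0.28 for RPL23AP7. A 95% interval from the derived SE stayed within a 2-fold change in both directions for all 61, with bounds no further out than -0.83 and 0.61.

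FAM86 genes, a family related to the methyltransferase EEF2KMT, were mostly lower with auxin whether annotated as pseudogenes or as coding. The family was picked after its values were seen. Among its pseudogenes FAM86B3P, FAM86JP, FAM86C2P and FAM86EP fell, with log2 fold changes of -1.72, -0.78, -0.37 and -0.28, and FAM86DP did not pass at -0.10. The coding members FAM86B1, FAM86B2 and FAM86C1 fell as well, at -1.16, -1.03 and -0.23, and EEF2KMT fell at -0.51. FAM86DP, which did not pass, had the highest level of the listed FAM86 genes, 417 per kilobase, and FAM86B3P had 55.7 per kilobase. The 5 STAG3L pseudogenes, copies of parts of the cohesin gene STAG3, did not pass, with log2 fold changes from -0.13 to 0.21. Members of these families share long stretches of sequence, so how the reads were divided among them is uncertain.

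Unitary pseudogenes gave 4 rises of at least 2-fold. CDIPTOSP on chromosome 16 rose from a derived 34.4 to 152, at 4.40-fold by the authors' deposited table (adjusted p 2.48e-21), with a log2 fold change of 2.14 (SE 0.22). SERHL and WFDC21P were at 6.34-fold and 4.61-fold by the authors' deposited table, but from derived levels of 3.54 and 5.34 without auxin, and the SE of their log2 fold changes was 0.64 and 0.51. EGFEM1P on chromosome 3, the remnant of a gene for an EGF-like protein, rose from 86.5 to 182, at 2.10-fold by the authors' deposited table. TMEM198B rose from 669 to 1021 and ATE1-AS1 from 41.1 to 63.0, both at 1.53-fold by the authors' deposited table. SERHL is annotated as unitary although a near-identical coding gene, SERHL2, was listed. The 2 are 99.15% identical over 825 aligned bases, SERHL2 rose too (log2 1.39), and reads may be divided between them.

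The 4 unitary pseudogenes that fell were AFG3L1P, FBXL21P, LINC02210 and GUCY1B2. AFG3L1P, the remnant of a mitochondrial protease gene, fell from a derived 1562 to 1248, at 0.799-fold by the authors' deposited table (adjusted p 6.15e-05). Its coding relative AFG3L2 fell by a like amount (log2 -0.35, against -0.32). FBXL21P, the remnant of an F-box gene, fell from 229 to 173, at 0.755-fold by the authors' deposited table. LINC02210 fell from 413 to 285, at 0.691-fold, and GUCY1B2, the remnant of a guanylate cyclase subunit gene, from 84.6 to 49.4, at 0.584-fold by the authors' deposited table. The most abundant transcribed pseudogene, the zinc finger remnant ZNF271P, had a mean level of 3480 and did not pass (log2 0.06, SE 0.07). AHSA2P, related to the HSP90 activator AHSA1, had a mean level of 1191 and did not pass (log2 0.21, SE 0.11).

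**Figure D3:**
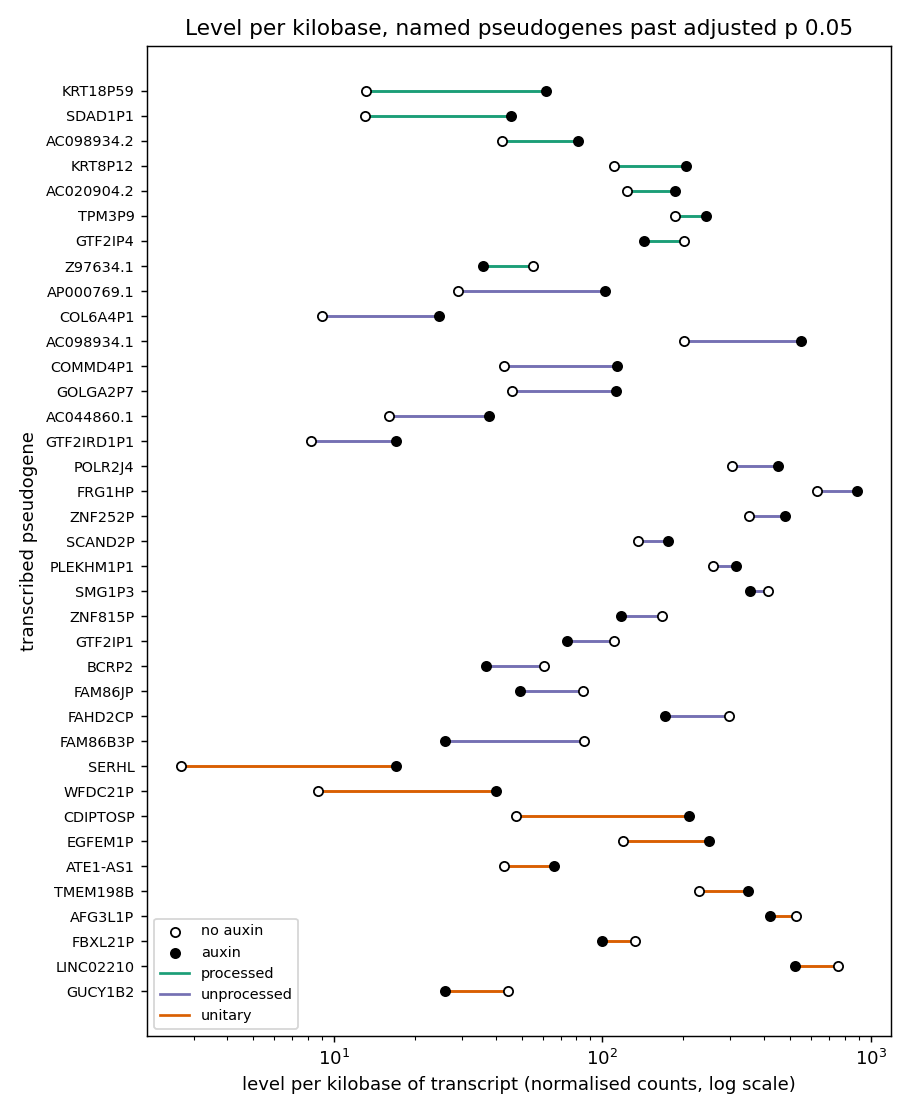
Derived level per kilobase of transcript without auxin (open) and with auxin (filled), on a log axis, for the 37 named transcribed pseudogenes past adjusted p 0.05, joined by a line coloured by type. SERHL and KRT18P59 span wide rises, FAM86B3P the widest fall, and SMG1P3 the narrowest gap.

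Counts by family rest on lists of gene symbols, which were chosen with earlier results of these data known. Of 17 pseudogenes whose symbols begin with those of NBPF, CROCC, ANKRD20A, FAM, FRG and similar families, 5 fell and 1 rose. The falls were NBPF8 on chromosome 1 and the 4 FAM86 pseudogenes given above, which lie on chromosomes 3, 4, 8 and 11, and the rise was FRG1HP on chromosome 9. Of 13 from the Williams syndrome region and other chromosome 7 families, 2 rose and 2 fell. The rises there were POLR2J4 and GTF2IRD1P1, and the falls GTF2IP1 and GTF2IP4. Of 11 from chromosome 15 families 1 rose, GOLGA2P7, and 0 fell. Of 4 from chromosome 16 families 1 fell, SMG1P3. Zinc finger pseudogenes numbered 6, with 1 rise, ZNF252P, and 1 fall, ZNF815P. Among 8 pseudogenes of ribosomal protein and translation factor genes 1 rose, RPS27P25, and of 7 with symbols on a list of metabolic enzymes and transporters 0 passed. That list does not hold GLUD1P3, which rose. The lists hold too few members to be read against the 28.1% of all transcribed pseudogenes that passed.

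Coding sources could be matched by name for 76 pseudogenes, 22 processed and 54 unprocessed, and they pointed to 62 coding genes. In the best-scoring blastn stretch of each pair, identity was 69.04 to 99.84%, with a median of 93.47%. That stretch covered a median of 97.0% of the source's coding sequence in processed copies and 35.98% in unprocessed ones. Further stretches of a pair were not added, so a copy that aligns in several pieces can cover more than this. Of 75 whose best stretch reached coding sequence, 53 had a gap in it that shifts the frame, 39 a new stop codon, and 60 at least 1 of these. The pseudogene had the lower level per kilobase in 66 of 75 pairs, with medians of 78.4 for pseudogenes and 913 for coding genes. TMEM231P1 and PLEKHM1P1 were among the exceptions. TMEM231P1 had 107 per kilobase and TMEM231 had 90.04, and PLEKHM1P1 had 287 and PLEKHM1 had 155.

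Calls of pseudogene and source often parted. Among the 76 pseudogenes 17 rose, 4 fell and 55 did not pass, while their sources rose in 14 pairs, fell in 33 and did not pass in 29. Levels were unlike, at medians of 78.4 and 913 per kilobase, and the part of level in these calls was not tested. Over all transcribed pseudogenes 18.6% rose and 9.52% fell, and over all coding genes 28% rose and 31.9% fell. Both rose in 5 pairs, KRT18P59, KRT8P12, SUGT1P3, GLUD1P3 and PLEKHM1P1 with their sources. Both fell in 3 pairs, GTF2IP4 and GTF2IP1 with GTF2I, and BCRP2 with BCR. The pseudogene rose and the source fell in 6 pairs, those of SDAD1P1, COMMD4P1, TMEM231P1, GTF2IRD1P1, ZDHHC8P1 and CD99P1. The reverse was seen in 0 pairs, but only the 4 pseudogenes that fell could have shown it. The source by name was not always the closest coding gene by sequence. CD99P1 aligned to CD99 over 281 bases in its best stretch, at 69.04% identity, and its closest match was TFDP2. CENPBD1P1 aligned to CENPBD1 over 214 bases in its best stretch, at 71.03%, and its closest match was RPL23A, at 91.36% over 509 bases. The median log2 fold change was 0.16 for the pseudogenes and -0.11 for their sources, and the pseudogene's value was the higher one in 59 of 76 pairs. That difference was not tested.

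The fall of GTF2I, from 6950 to 4916 (log2 -0.50), was matched in size by GTF2IP4 (-0.49) and GTF2IP1 (-0.58), which are 99.84 and 99.81% identical to it. BCRP2, at 98.18% identity, had -0.71 where BCR had -0.77. Reads at this identity cannot be assigned with certainty, so whether those pseudogenes fell by themselves was not tested. ZDHHC8P1, at 90.81% identity, had 0.82 where ZDHHC8 had -0.62, and GTF2IRD1P1, at 85.02%, had 1.05 where GTF2IRD1 had -0.47. Of the 7 pairs of at least 98% identity with a mean level of at least 20, 3 pseudogenes fell, each with its source, and 1 rose. Of the 54 pairs below 98% at such levels, 15 pseudogenes rose and 1 fell. Over all listed genes 27.8% rose and 28.9% fell. The name pairs held only 4 of the 20 falls among transcribed pseudogenes. By closest coding match over at least 200 bases, at such levels, 5 of 18 pseudogenes at 98% or more fell and 3 rose. From 95 to 98% identity 3 of 32 fell and 6 rose, and below 95% 7 of 89 fell and 23 rose. Over all 76 pairs the log2 fold changes had a Pearson correlation of 0.16 and a Spearman correlation of 0.16, and over the 37 with a mean level of at least 100 they had 0.32 and 0.38. The pairs share libraries and, where alike in sequence, reads, and some share a source.

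**Figure D4:**
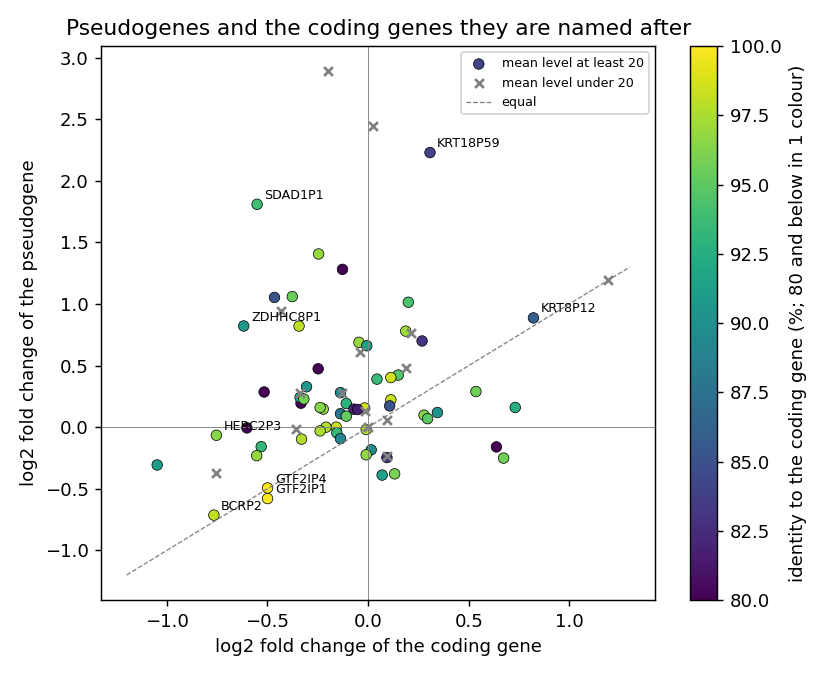
Log2 fold change of each pseudogene against that of the coding gene it is named after, for 76 pairs, with colour giving identity for pairs whose pseudogene has a mean level of at least 20 and crosses for lower levels. GTF2IP1, GTF2IP4 and BCRP2 lie near the dashed line of equal change, while SDAD1P1 and ZDHHC8P1 are above 0 with sources below 0.

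A start site within 1000 bases of the start of a listed gene on the opposite strand was found for 27 of 47 processed (57.4%), 17 of 141 unprocessed (12.1%) and 9 of 22 unitary pseudogenes (40.9%). The same held for 58.6% of long noncoding RNAs and 22.3% of coding genes. This feature was chosen after values were seen. Of the 53 pseudogenes with such a start 11 rose (20.8%) and 2 fell, with a median log2 fold change of 0.43. Of the other 157, 28 rose (17.8%) and 18 fell, with a median of 0.06. Over all 3730 listed genes with such a start 1032 rose (27.7%) and 843 fell, with a median of 0.05. Long noncoding RNAs had a split of the same direction, with 30.3% risen and a median of 0.46 with such a start, and 22.2% and 0.25 without. Within the types the medians with and without such a start were 0.61 and 0.03 for processed, 0.37 and 0.08 for unprocessed, and 0.61 and -0.00 for unitary pseudogenes. Pseudogenes with such a start were also lower in level, at a median of 39 against 135. At a mean level of at least 100 the medians were 0.16 for 15 with such a start and 0.04 for 86 without. The difference was not tested, nor was the part of level in it.

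The genes facing these 53 pseudogenes went both ways, as 17 rose, 11 fell and 25 did not pass. Over all listed genes 27.8% rose and 28.9% fell. Some of the facing genes, such as AC098934.1 and AC098934.2, are themselves among the 53. The starts of AC098934.1 and AC098934.2 lie 134 bases apart on opposite strands, and both pseudogenes rose, as described above. CDIPTOSP starts 367 bases from CDIPT, which makes phosphatidylinositol and which rose (log2 0.26). COL6A4P1 rose while CAPN7, a calpain gene 287 bases away, fell (log2 -0.35), and RPS27P25 rose while MSI1, an RNA-binding protein gene 276 bases away, fell (log2 -0.69). ATE1-AS1, which overlaps ATE1, rose while ATE1 fell (log2 -0.21), and AFG3L1P fell while CENPBD1 rose (log2 0.64). SDAD1P1 starts 101 bases from BNIP3L, a mitophagy gene that did not pass (log2 -0.03). The library kit was directional per the labels, but whether the counting used strand is not stated, so reads of overlapping genes on opposite strands cannot be told apart here.

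**Figure D5:**
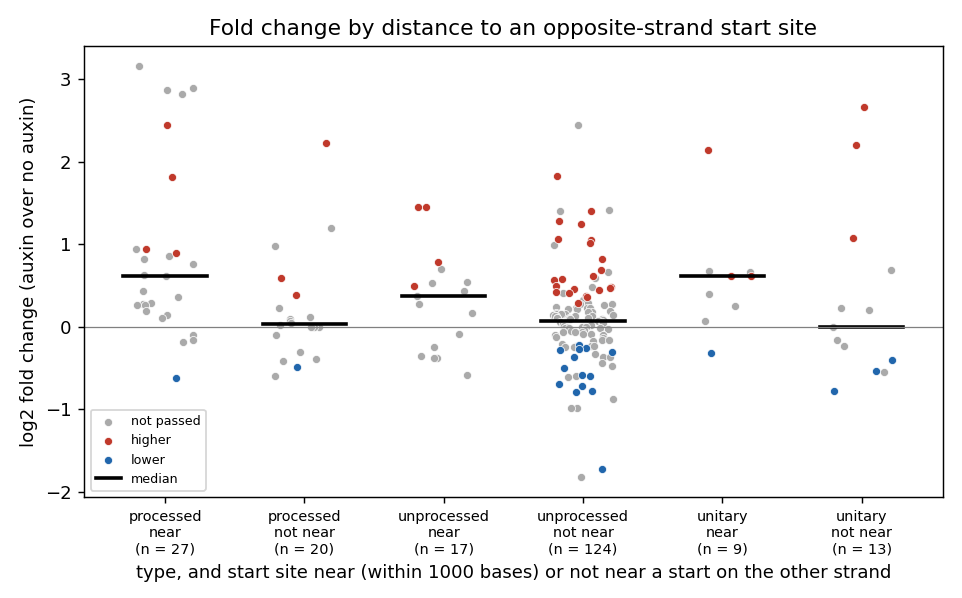
Log2 fold change of transcribed pseudogenes by type, split by whether the start site lies within 1000 bases of a listed start on the other strand, with 1 point per pseudogene and a bar at each median. Processed pseudogenes near such a start have a median of 0.61 and the other processed ones 0.03.

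Of the 210 pseudogenes, 22 had a listed gene ending within 10000 bases upstream on the same strand. The share of other listed genes with such a neighbour was not computed. Of these 22 pseudogenes 5 rose and 1 fell, with a median log2 fold change of 0.15. The other 188 had 34 rises and 19 falls, with a median of 0.12. Exons of 48 pseudogenes overlapped an annotated gene on the same strand, with 9 rises and 5 falls, and exons of 89 overlapped one on the other strand, with 15 rises and 11 falls. Over all transcribed pseudogenes 18.6% rose and 9.52% fell, and over all listed genes 27.8% and 28.9% did. The differences were not tested. POLR2J4, TPM3P9, SCAND2P, PLEKHM1P1, AC044860.1, SMG1P3, GTF2IP1 and LINC02210 were among those with same-strand overlap, so their values may hold reads of another gene.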

How the data were processed

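RNA-seq of INTS8-AID HEK293T cells, 3 libraries with and 3 without auxin, was used through 1 table of the authors' comparison. Per the submitters' processing notes STAR 2.7.3a, DESeq2, hg38 and dm6 were used, with no role given. Per the labels' protocols RNA was ribosome-depleted and libraries were directional. Per the file headers, the deposited values are a mean level (a score, because the normalised means were rounded), log2 fold changes, the same as a linear ratio, and p-values before and after adjustment. The deposited log2 expression column equalled the log2 level per kilobase of the numerator group, within 0.0166 over 12195 genes of level 100 or more. Which counting tool was used is not given in the sources. No value per library was used here, so the planned per-library fit was replaced by the authors' adjusted p at 0.05, and depth per library is unknown.

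Group levels assume groups of equal size. Each SE was obtained by dividing the log2 fold change by the normal quantile that its p-value implies under a two-sided Wald test, which no source states. The adjusted p matched Benjamini-Hochberg adjustment over 14479 genes. Of the 210 pseudogenes, all were found in GENCODE 29, 207 with the same type. Sources by name were coding genes whose symbol is that of the pseudogene without its final P and number. Transcripts were aligned with blastn 2.17.0, by its blastn task for pairs and by its megablast task for the search of closest coding matches. In both, only the best-scoring stretch was used, so identity, coverage, frameshift gaps and stop codons are those of that stretch. The identities of GOLGA2P7 to GOLGA6A, of FRG1HP and of AC009053.2 are from megablast. The tasks can give different identities for 1 pair, as for GOLGA2P10 and GOLGA2, with 78.56% by blastn and 81.39% by megablast. Coordinates are those of the authors' table, and sequences those of GENCODE 29.

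Members and lists were chosen with earlier results of these data known. Named pseudogenes, 43 in all, were per type the 6 largest rises and 4 largest falls past the threshold with a mean level of at least 20, the 3 of highest level, every unitary pseudogene past the threshold and up to 3 per family list. A gene that the rule takes is not reported here. Others were chosen after their values were seen. Alternatives were an adjusted p of 0.01, a 2-fold limit, a mean level of at least 100, centring by -0.03, and leaving out pseudogenes whose exons overlap another gene on the same strand. A further alternative left out 25 pseudogenes by their best match to a listed coding gene. That match was at least 98% identical over at least 200 aligned bases, which could be a small part of the transcript. The calling of rises and falls and the derivation of the SE were run on simulated log2 fold changes, drawn with the derived SEs. The SE was thus recovered by design, and the Wald assumption was not tested. Alignments, matching by name, start sites and family counts were not simulated. Versions were pandas 2.3.3, numpy 2.4.6, matplotlib 3.10.9 and scipy 1.17.1 under Python 3.11.15.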

Additional observations from a re-analysis of the deposited data

How the results depend on the processing

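No paired analysis was possible because the table holds no values per library, and leaving out single libraries was not possible for the same reason. Of 48 counts under the alternatives, 35 stayed within 1.5 times the main count. Centring kept the deposited adjusted p, and no pseudogene that passed had a log2 fold change smaller in size than 0.22. The centred counts were thus fixed in advance at the main counts, and they are among the 35. With a limit of at least 2-fold, the 39 rises and 20 falls became 16 and 1, those of processed pseudogenes went from 7 and 2 to 3 and 0, those of unprocessed from 26 and 14 to 9 and 1, and the 4 unitary falls became 0. A mean level of at least 100 kept only 101 of the 210, so counts there shrink with the number kept. Rises were 24 in all, 17 of 77 unprocessed and 2 of 9 unitary pseudogenes, and processed falls were 1 of 15. As a share, 23.8% rose there, against 18.6% of all 210. The processed falls were also 1 at an adjusted p of 0.01. They were 1 as well without pseudogenes that had a stretch at least 98% identical to a coding gene, an alternative chosen after seeing the data. Without pseudogenes whose exons overlap another gene on the same strand, 30 of the 162 left rose and 15 fell. The median log2 fold change of 0.13 was 0.06 at a mean level of at least 100, where fewer pseudogenes of low level enter. The median derived SE was 0.317 for levels from 10 to 99 and 0.115 at 100 or more. The part of level in what passed was not tested.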

Other observations

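Some of the largest folds belong to pseudogenes with almost no signal. AC005410.1, a processed pseudogene, had a log2 fold change of 3.15 at a mean level of 0 and did not pass. GENCODE 29 gave another type to 3 of the 210, which were H2BP2 and C2orf27B, long intergenic noncoding RNAs there, and NBPF8, an unprocessed pseudogene without the word transcribed. NBPF8 fell at a log2 fold change of -0.27. Per kilobase, the highest levels were those of STAG3L5P at 1060, RNF216P1 at 870, CRYBB2P1 at 855 and SBDSP1 at 812, named after their values were seen, and of these only CRYBB2P1 passed, at a log2 fold change of -0.25.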
